A study of Danio rerio with 8 samples.

Results

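Chemokines are small secreted proteins that guide migrating cells, and their receptors are proteins of the cell surface that signal through G proteins or, in the atypical receptors named ackr, take chemokine up and degrade it. Members named cxcl or ccl are ligands, and members named cxcr, ccr, xcr or ackr are receptors. Fish carry many more copies of these genes than mammals, often side by side on a chromosome, and several fish groups have no single mammalian counterpart. In the body, homeostatic members place germ cells, the lateral line, blood progenitors and thymocytes, while inflammatory members are made at sites of damage or infection and draw in neutrophils, macrophages and lymphocytes.

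The genes described here are those whose symbol begins with cxcl, ccl, cxcr, ccr, xcr or ackr followed by a digit. A RefSeq gene table of the zebrafish assembly GRCz12tu lists 80 such symbols, of which 51 are ligands and 29 are receptors. Probes could be named for 63 of them, 44 ligands and 19 receptors, among 20958 genes with a named probe in all. Transcripts were measured on one-colour Agilent arrays, on which a single dye reports each labelled RNA sample. The study made a zebrafish model of Zellweger syndrome, a peroxisome disorder, by mutating pex2, which encodes a membrane protein needed to import peroxisomal enzymes. For the allele that the labels call typeC, 4 pools of pex2-/- mutants were set against 4 pools of their pex2+/+ wild-type siblings. Each pool mixed whole-body RNA of 3 larvae at 5 weeks of age, and the labels name no treatment. The labels do not say whether pools came from separate clutches, so p-values measure only the spread between these pools.

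A value below is a relative signal, which is the log2 processed intensity of a probe minus the 75th percentile of its array, so 0 marks that percentile. Values are listed for pools 1 to 4 of each genotype in turn, and differences are mutant minus sibling with their SE from limma's moderated fit (n = 4 pools each), with p-values adjusted over all tested probes and called under 0.05. The 75th percentile itself lay at 454 to 499 intensity units on mutant arrays and at 611 to 839 on sibling arrays, and 67.3% to 75.6% of probes on mutant arrays and 74.5% to 76.3% on sibling arrays were well above background. Correlations of arrays over probes were 0.935 to 0.980 among mutants, 0.981 to 0.992 among siblings and 0.861 to 0.929 across genotypes. All 8 arrays lay on 1 slide. The genotype labels could not be checked on pex2 itself, for which 0 probes carried a matching accession. The small number of arrays limits the precision.

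Of the 63 genes, 49 had a probe well above background on at least 4 of the 8 arrays and are called measured, 36 ligands and 13 receptors. Of the other 14, the probes of ccl34a.3, ccl38a.4, ccl39.2, ccr10, cxcl11.8, cxcl32b.1, xcr1b.2 and xcr1b.3 were not well above background on any array. Those of ccl39.3 and ccr6a were above it on 3 sibling arrays, that of ccr9b on 2, and those of ccl27b and ccl33.2 on 1, with no mutant array above it for these 5. The probe of cxcr3.3 was above it on 1 mutant array and no sibling array. The 17 listed symbols for which no probe could be named were ackr4b, ccl20a.4, ccl32b.3, ccl34b.8, ccl36.1, ccl39.6, ccr11.1, ccr12b.1, ccr2, ccr8.2, cxcl11.1, cxcl11.6, cxcr1, cxcr2, cxcr5, xcr1a.1 and xcr1b.1, and they are not analysed here.

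Chemokine transcripts were lower in pex2 mutants across most families measured. Of the 36 measured ligands, 28 fell, 1 rose (cxcl20) and 7 did not pass the test. Of the 13 measured receptors, 11 fell, 1 rose (ccr6b) and 1 did not pass (ccr12a). Among the 17263 named genes tested, 57.6% were called in either direction, 27.8% lower and 29.9% higher, so calls in both directions were common among all genes. The median difference was -1.51 for ligands and -1.02 for receptors, against 0.01 for all genes tested. A fall of at least 2-fold was called for 23 ligands and 7 receptors, against 12.4% of all genes. These include 5 ligands and 3 receptors with no mutant array well above background, whose fitted values are not sizes of effect. Among genes well above background on all 8 arrays, such a fall was called for 13 of 26 ligands and 3 of 8 receptors. The share of all genes on all 8 arrays was 9.19%. No test was made between the ligand and the receptor median. In whole bodies, fewer cells of a type and less RNA per cell cannot be told apart.

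Part of these counts is set by the filter on dim probes. In 5 ligands and 3 receptors no mutant array was well above background, so they entered only through the sibling arrays, which favours a fall. A further 5 ligands and 2 receptors were above background on 1 to 3 mutant arrays. Among the 26 ligands above background on all 8 arrays, 18 fell, 1 rose and 7 did not pass, with a median of -1.05. Among the 8 receptors above background on all 8 arrays, 6 fell, 1 rose and 1 did not pass, with a median of -0.81. Over all genes that met this stricter filter, 57.4% were called, 25.6% fell and 31.8% rose, and their median was 0.05. With the genes dim on every mutant array set at an approximate bound, explained below, the medians of the measured genes were -1.07 for ligands and -0.76 for receptors.

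**Figure D1:**
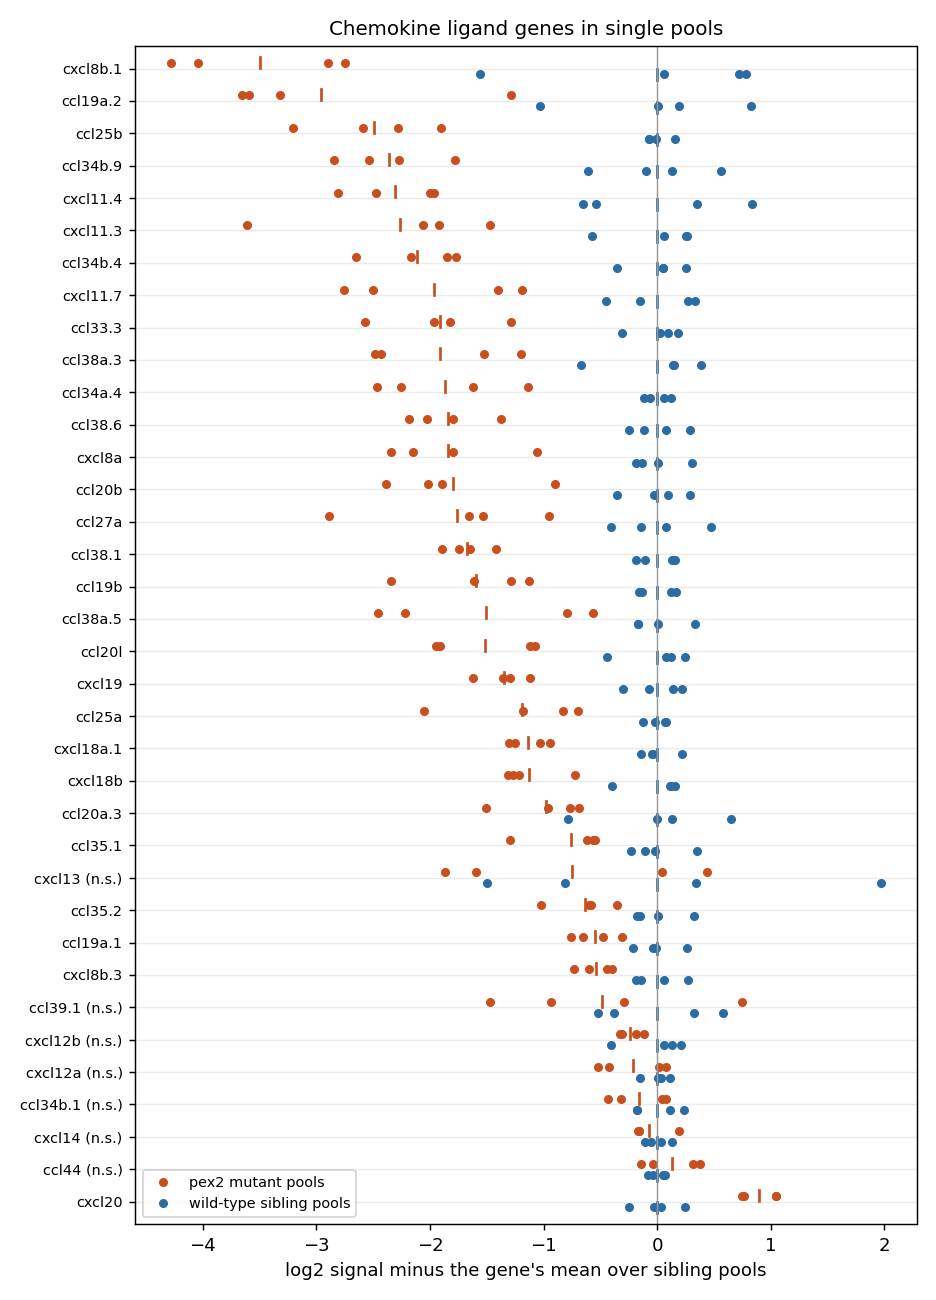
Log2 signal of the 36 measured chemokine ligands in each pool, minus the gene's mean over the 4 sibling pools (horizontal axis), with mutant pools in orange above sibling pools in blue and a vertical tick at each mean. Genes marked n.s. did not pass the test, and for ccl34b.9, cxcl11.4, ccl34a.4, ccl38a.3 and ccl38a.5 no mutant array was well above background. A reader should see mutant points left of sibling points for most genes, and right of them for cxcl20.

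Neutrophil attractants showed the largest single difference among the members. In zebrafish, Cxcl8 proteins and the fish-specific Cxcl18b draw neutrophils through Cxcr2. cxcl8b.1 read -2.53, -1.15, -1.0 and -2.29 in mutant pools, against 0.19, 2.47, 1.81 and 2.53 in sibling pools. Every mutant pool lay below every sibling pool, although sibling pool 1 lay well under the other 3 siblings. The difference was -3.49 ± 0.58, or 11.2-fold lower in mutants (adjusted p = 0.00129). cxcl8a read -3.57, -2.83, -4.11 and -3.92 in mutant pools, against -1.96, -1.90, -1.46 and -1.76 in sibling pools. The genotypes did not overlap for cxcl8a either, and it fell by 1.84 ± 0.27, which is 3.57-fold (adjusted p = 7.25e-04). cxcl8b.3 read -2.96, -3.09, -2.76 and -2.80 in mutant pools and -2.30, -2.55, -2.09 and -2.50 in sibling pools, a narrower gap of -0.54 ± 0.13 (adjusted p = 0.00819).

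The cxcl18 genes fell by nearly the same amount. cxcl18b read -2.43, -1.94, -2.48 and -2.53 in mutant pools, against -1.61, -1.09, -1.10 and -1.06 in sibling pools. Mutant pool 2 was the highest mutant and sibling pool 1 the lowest sibling, and they did not meet. cxcl18a.1 read -1.59, -1.50, -1.86 and -1.81 in mutant pools, against -0.70, -0.59, -0.60 and -0.34 in sibling pools. Both differences were -1.13, with SE 0.18 for cxcl18b (adjusted p = 9.88e-04) and 0.12 for cxcl18a.1 (adjusted p = 1.88e-04). cxcl19, another CXC ligand, read -3.28, -2.96, -2.78 and -3.02 in mutant pools and -1.96, -1.73, -1.44 and -1.52 in sibling pools. It was 2.54-fold lower in mutants (-1.35 ± 0.15, adjusted p = 2.22e-04), with a clear gap between genotypes. The receptors cxcr1 and cxcr2 are not analysed here. With normexp background correction, an alternative that models background and signal together, the difference of cxcl8a was -0.92 and that of cxcl19 was -0.70, both still called, while cxcl8b.3 at -0.15 was not (adjusted p = 0.125).

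Of the homeostatic cxcl12 axis, the receptors fell and the ligands did not pass the test. Cxcl12 guides germ cells and the lateral line primordium of zebrafish embryos through Cxcr4b, Cxcr4a acts in vessels and endoderm, and Ackr3b clears Cxcl12. cxcl12a read -0.40, -0.34, -0.94 and -0.84 in mutant pools, against -0.57, -0.31, -0.41 and -0.39 in sibling pools. cxcl12b read -4.11, -4.04, -4.23 and -4.25 in mutant pools, against -3.71, -4.33, -3.86 and -3.79 in sibling pools. For both ligands the genotypes overlapped, since mutant pools 1 and 2 lay among the siblings for cxcl12a and sibling pool 2 was the lowest of all pools for cxcl12b. The difference of cxcl12a was -0.21 with a 95% interval of -0.57 to 0.15 (adjusted p = 0.276), and that of cxcl12b was -0.23 with an interval of -0.57 to 0.10 (adjusted p = 0.196). Without sibling pool 2, cxcl12b was called lower at -0.37 (adjusted p = 0.0212), and with normexp its sign turned to 0.19 (adjusted p = 0.0527).

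cxcr4a read -2.75, -2.53, -2.29 and -2.72 in mutant pools, against -1.26, -1.27, -1.18 and -1.29 in sibling pools. The 4 siblings were within a narrow band and every mutant was far below it. The difference was -1.32 ± 0.12, or 2.50-fold lower in mutants (adjusted p = 9.88e-05), the smallest adjusted p of the receptors. cxcr4b read -2.19, -1.76, -1.38 and -2.06 in mutant pools, against -1.45, -1.23, -0.99 and -0.84 in sibling pools. Here mutant pool 3 lay just above sibling pool 1, so the genotypes overlapped, and the difference was -0.72 ± 0.20 (adjusted p = 0.0161). ackr3a read -4.52, -4.09, -4.34 and -3.49 in mutant pools and -3.25, -3.21, -3.22 and -3.15 in sibling pools. ackr3b read 0.62, 0.74, 0.75 and 0.73 in mutant pools and 1.25, 1.37, 1.44 and 1.59 in sibling pools. Neither ackr3 gene overlapped between genotypes, mutant pool 4 of ackr3a being the nearest to its siblings. They fell by 0.90 ± 0.21 for ackr3a (adjusted p = 0.00604) and by 0.70 ± 0.10 for ackr3b (adjusted p = 5.42e-04). With normexp the call of ackr3a was lost (-0.13, adjusted p = 0.209), and the differences of cxcr4a and cxcr4b were -0.82 and -0.47, both still called.

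Among the other CXC ligands, cxcl14, which epithelia make constitutively in mammals, did not pass the test. It read 1.39, 1.39, 1.38 and 1.74 in mutant pools and 1.49, 1.44, 1.58 and 1.68 in sibling pools, a difference of -0.08 with an interval of -0.34 to 0.18. cxcl13, named for the mammalian chemokine of B cell follicles, read -2.20, -1.80, -4.11 and -3.83 in mutant pools and -3.74, -1.90, -0.27 and -3.05 in sibling pools. The siblings alone spanned more than the gap between the means, and the interval of -2.62 to 1.13 around -0.74 allows a large change in either direction.

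**Figure D2:**
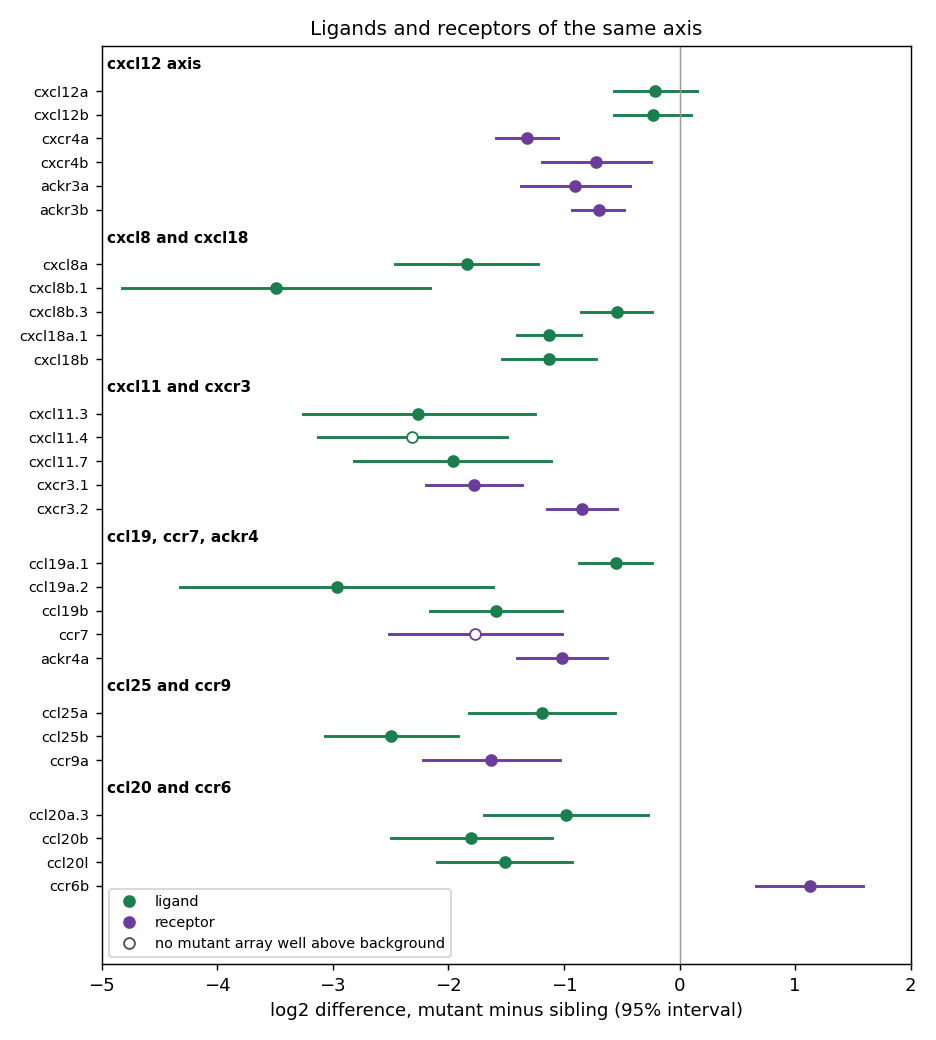
Difference of mean log2 signal, mutant minus sibling (horizontal axis), with its 95% interval, for ligands (green) and receptors (purple) grouped by axis. Open symbols, cxcl11.4 and ccr7, had no mutant array well above background, so their fitted values are not sizes of effect. The intervals of cxcl12a and cxcl12b cross 0, and ccr6b alone lies to the right of it.

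In the cxcl11 and cxcr3 family both ligands and receptors were lower in mutants. In mammals CXCL11 is induced by interferon and draws T cells through CXCR3, and in zebrafish Cxcr3.2 takes macrophages to sites of infection. cxcl11.3 read -3.97, -4.56, -6.11 and -4.42 in mutant pools, against -2.44, -3.08, -2.24 and -2.25 in sibling pools. cxcl11.7 read -4.04, -4.25, -5.35 and -5.60 in mutant pools, against -3.00, -3.30, -2.58 and -2.51 in sibling pools. The genotypes did not overlap, and mutant pool 3 of cxcl11.3 lay far under the rest. Above background on 3 mutant arrays, cxcl11.3 fell by 2.26 ± 0.44, or 4.78-fold (adjusted p = 0.00281), and cxcl11.7, above it on 2, fell by 1.96 ± 0.37 (adjusted p = 0.00258, -0.52 with normexp). Both of these sizes rest partly on signals not above background. cxcl11.4 read -7.03, -6.70, -6.19 and -6.22 in mutant pools, all not well above background, against -4.76, -4.88, -3.39 and -3.87 in sibling pools. By an approximate bound it was 1.70-fold lower in mutants. Such bounds set the sibling mean against the dimmest probes well above background on the mutant arrays, or against the gene's own signal where higher. A probe not well above background can exceed that dimmest level, so the bounds are not strict limits. They apply to Agilent's own background correction, and no gene given a bound was called with normexp. Every gene given a bound passed the filter only through sibling arrays, so its call is not support for a difference. The adjusted p-value belongs to the fitted difference and not to the bound, and it is left out for these genes.

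cxcr3.1 read -4.68, -4.50, -4.78 and -5.37 in mutant pools, against -2.93, -3.15, -3.04 and -3.09 in sibling pools. The 4 sibling pools were tightly grouped, the 4 mutants lay well under them, and 2 mutant arrays were above background. cxcr3.1 fell by 1.78 ± 0.18 (adjusted p = 1.57e-04, -0.41 with normexp), a size that rests partly on signals not above background. cxcr3.2 spanned -4.91 to -4.40 in mutant pools, 3 of them above background, and -3.90 to -3.62 in sibling pools, a fall of 0.84 ± 0.13 (adjusted p = 9.97e-04). With normexp the difference of cxcl11.3 was -0.79, and all 3 of cxcl11.3, cxcl11.7 and cxcr3.1 were still called. Under that correction cxcr3.2 turned to 0.05 (adjusted p = 0.660), and cxcl11.4 was at -0.07 (adjusted p = 0.668).

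The ccl19 ligands and the receptor ackr4a were called lower, while ccr7 was dim on every mutant array. In mammals CCL19 brings T cells and dendritic cells into lymphoid tissue through CCR7, and ACKR4 scavenges it. ccl19a.2 read -2.76, -5.12, -5.06 and -4.79 in mutant pools, against -1.46, -2.50, -0.64 and -1.28 in sibling pools. Mutant pool 1 stood far above the other mutants yet under every sibling, and it was the 1 mutant array above background. ccl19a.2 fell by 2.96 ± 0.59 (adjusted p = 0.00314, -1.36 with normexp), a size that rests mostly on signals not above background. ccl19b read -0.22, 0.83, 0.51 and 0.99 in mutant pools and 1.96, 1.99, 2.24 and 2.29 in sibling pools. It fell by 1.59 ± 0.25, or 3.01-fold (adjusted p = 0.00100), with no overlap. ccl19a.1 read 0.51, 0.68, 0.85 and 0.40 in mutant pools and 1.15, 0.95, 1.42 and 1.12 in sibling pools, a smaller fall of 0.55 ± 0.14 (adjusted p = 0.00912). Its second probe gave -0.58 ± 0.14.

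ccr7 read -6.41, -5.15, -5.75 and -6.71 in mutant pools, none well above background, against -4.59, -4.11, -4.25 and -4.00 in sibling pools. By its approximate bound it was 1.69-fold lower in mutants. ackr4a read -3.86, -3.47, -4.32 and -3.75 in mutant pools, against -2.86, -2.90, -2.86 and -2.70 in sibling pools. The siblings of ackr4a were nearly level and the mutants spread below them, with a difference of -1.02 ± 0.17, or 2.03-fold lower (adjusted p = 0.00140). With normexp ccl19b kept -1.52 and ccl19a.1 kept -0.55, whereas ackr4a was at -0.25, and all 4 genes were still called. For ccr7 the normexp difference was -0.00 (adjusted p = 0.980).

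The ccl25 ligands and ccr9a were lower as well. In zebrafish and mammals Ccl25 is made in the thymus and Ccr9 on incoming progenitors and thymocytes answers it. Whole-body RNA does not show in which organ these transcripts were made. ccl25b read -1.92, -1.54, -2.23 and -2.84 in mutant pools, against 0.29, 0.29, 0.35 and 0.52 in sibling pools. All siblings were above the arrays' 75th percentile and all mutants were below it. The difference was -2.50 ± 0.25, or 5.65-fold lower in mutants (adjusted p = 1.45e-04), and -1.97 with normexp. ccl25a read -1.66, -2.88, -2.01 and -1.52 in mutant pools and -0.85, -0.76, -0.75 and -0.95 in sibling pools. It was 2.28-fold lower (-1.19 ± 0.27, adjusted p = 0.00624), mutant pool 2 being the lowest. ccr9a read -2.38, -1.77, -1.58 and -2.27 in mutant pools, against -0.92, -0.40, -0.31 and 0.14 in sibling pools. It was 3.09-fold lower (-1.63 ± 0.26, adjusted p = 0.00107), and sibling pool 1, the lowest sibling, stayed above every mutant. ccr9b was above background on 2 sibling arrays and on no mutant array, too few to be tested.

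The ccl20 ligands and the receptor ccr6b moved in opposite directions. In mammals CCL20 is made by mucosal epithelia and CCR6 is its receptor on lymphocytes and dendritic cells. ccl20b read -3.54, -2.42, -3.91 and -3.42 in mutant pools, against -1.43, -1.88, -1.55 and -1.23 in sibling pools. ccl20l read -5.23, -5.20, -4.41 and -4.36 in mutant pools, 2 of them above background, against -3.17, -3.73, -3.04 and -3.21 in sibling pools. No mutant pool reached a sibling pool for these genes, which fell by 1.80 ± 0.30 (3.48-fold, adjusted p = 0.00143) and by 1.51 ± 0.25 (adjusted p = 0.00137). With normexp they were at -1.01 and -0.28, both still called, and the size for ccl20l rests partly on signals not above background. ccl20a.3 was lower by a less stable margin, -0.98 ± 0.31 (adjusted p = 0.0251), with overlapping pools of -4.43 to -3.61 in mutants and -3.71 to -2.27 in siblings. Its call was lost without mutant pool 1 or without sibling pool 1, 3 or 4 (adjusted p between 0.0510 and 0.0618) with array weights (-0.86, adjusted p = 0.0510) and with normexp (-0.23, adjusted p = 0.178).

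ccr6b read -2.60, -1.79, -2.62 and -2.10 in mutant pools, against -3.32, -3.21, -3.48 and -3.61 in sibling pools. Every mutant pool was above every sibling pool. The difference was 1.13 ± 0.20, or 2.18-fold higher in mutants (adjusted p = 0.00189), and 0.76 with normexp. Among all genes 7.10% were called at least 2-fold higher, and ccr6b was the 1 such gene among the members. Its paralogue ccr6a was above background on 3 sibling arrays and on no mutant array, with relative signals of -5.66 to -5.20 in mutant pools and -5.40 to -3.97 in sibling pools, and it was not tested.

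**Figure D3:**
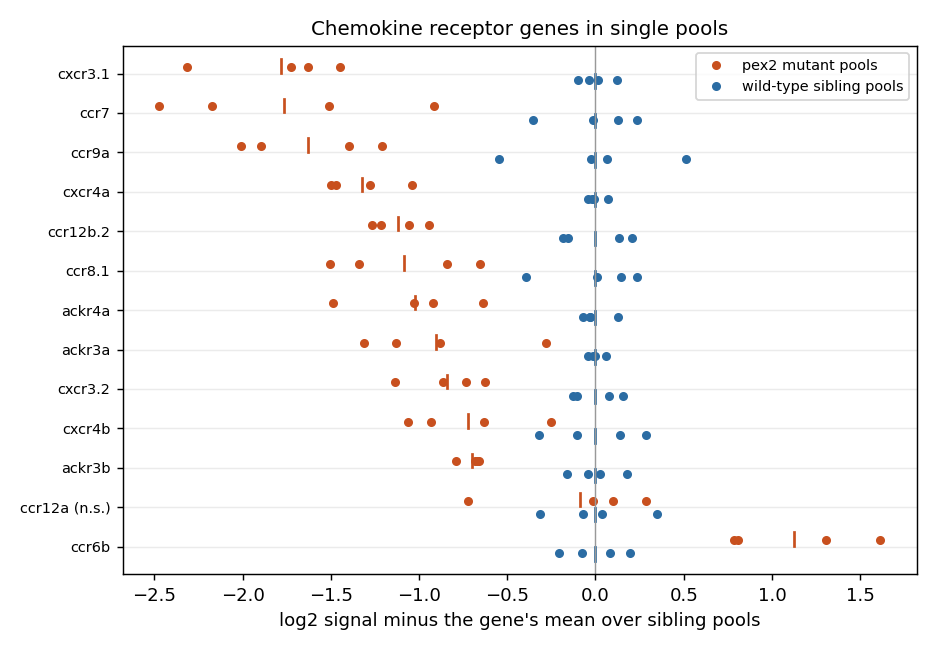
Log2 signal of the 13 measured chemokine receptors in each pool, minus the gene's mean over the 4 sibling pools (horizontal axis), with mutant pools in orange above sibling pools in blue and a vertical tick at each mean. For ccr7, ccr8.1 and ccr12b.2 no mutant array was well above background, and n.s. marks ccr12a, which did not pass the test. The mutant points of ccr6b lie right of its sibling points, and cxcr4b is the called receptor whose pools overlap.

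The remaining CC ligands, most of them from groups expanded in fish, also fell in the majority. ccl27a, named for a mammalian chemokine of the skin, read 0.17, -0.54, -0.41 and -1.77 in mutant pools, against 0.71, 1.2, 0.98 and 1.59 in sibling pools. Mutant pool 4 was the lowest and mutant pool 1 came nearest to the siblings, and ccl27a was 3.38-fold lower (-1.76 ± 0.39, adjusted p = 0.00537). ccl33.3 read -2.76, -3.30, -4.05 and -3.44 in mutant pools, against -1.79, -1.45, -1.29 and -1.38 in sibling pools. It was 3.76-fold lower (-1.91 ± 0.26, adjusted p = 4.82e-04), and the genotypes did not meet. With normexp the differences were -1.53 for ccl27a and -1.07 for ccl33.3, both called.

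Members of the ccl34 group differed among themselves. ccl34b.4 read -4.17, -3.78, -3.86 and -4.66 in mutant pools, 3 of them above background, against -2.36, -1.96, -1.96 and -1.75 in sibling pools. It was 4.32-fold lower in mutants (-2.11 ± 0.22, adjusted p = 1.58e-04, -0.95 with normexp), every mutant being far under the siblings. That size rests partly on signals not above background, and the second probe of ccl34b.4 was not well above background on any array. ccl34b.1, which marks a group of zebrafish microglia, read 1.13, 0.74, 0.62 and 1.1 in mutant pools and 0.88, 1.17, 0.88 and 1.29 in sibling pools. Its pools were intermixed, and the difference of -0.16 had an interval of -0.52 to 0.21 (adjusted p = 0.420), with -0.18 from its second probe. For ccl34b.9 and ccl34a.4 no mutant array was well above background. ccl34b.9 read -7.34, -6.27, -7.03 and -6.77 in mutant pools, against -4.59, -4.36, -3.93 and -5.10 in sibling pools. Its approximate bound was a 1.41-fold fall in mutants. ccl34a.4 read -5.60, -5.11, -6.44 and -6.23 in mutant pools, against -4.09, -3.86, -4.04 and -3.92 in sibling pools. The approximate bound for ccl34a.4 was 2.02-fold lower. Both calls were lost with normexp, at -0.08 for ccl34b.9 and -0.04 for ccl34a.4.

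The 4 measured genes of the ccl38 group were called lower in mutants, although ccl38a.3 and ccl38a.5 were dim on every mutant array. ccl38.1 read -3.65, -3.98, -4.13 and -3.88 in mutant pools, against -2.42, -2.08, -2.34 and -2.10 in sibling pools. ccl38.6 read -2.86, -3.28, -3.51 and -3.67 in mutant pools, against -1.73, -1.60, -1.20 and -1.41 in sibling pools. Both genotypes were compact and apart for these genes, with differences of -1.67 ± 0.13 for ccl38.1 (3.19-fold, adjusted p = 7.40e-05, the smallest of the ligands) and -1.85 ± 0.19 for ccl38.6 (3.60-fold, adjusted p = 1.69e-04). With normexp these were -0.70 and -1.05, both called. ccl38a.3 read -5.51, -6.74, -5.83 and -6.79 in mutant pools, none above background, against -4.16, -3.92, -4.98 and -4.17 in sibling pools. Its fall was 1.61-fold by the approximate bound. ccl38a.5, likewise dim on every mutant array, was 1.47-fold lower by its approximate bound. Its mean was -5.87 ± 0.97 in mutants and -4.36 ± 0.24 in siblings (SD, n = 4 each). Neither was called with normexp (-0.09 for ccl38a.3 and -0.02 for ccl38a.5).

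Smaller falls were called for ccl35.1 (-0.76 ± 0.20, adjusted p = 0.0120) and ccl35.2 (-0.64 ± 0.17, adjusted p = 0.0122), neither of them called with normexp (-0.26 and -0.22). ccl39.1 at -0.49 (interval -1.57 to 0.60) and ccl44 at 0.13 (interval -0.18 to 0.44) did not pass the test. ccl39.1 spread widely in both genotypes, -4.20 to -1.98 in mutant pools and -3.25 to -2.15 in sibling pools.

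The remaining receptors were near the detection limit or flat. ccr8.1, whose mammalian counterpart is found on skin-homing and regulatory T cells, read -5.85, -5.00, -5.19 and -5.69 in mutant pools, none above background, against -4.74, -4.34, -4.11 and -4.20 in sibling pools. By its approximate bound it was 1.54-fold lower in mutants. ccr12b.2 read -5.28, -5.39, -5.60 and -5.55 in mutant pools, none above background, against -4.20, -4.13, -4.52 and -4.49 in sibling pools. Its fall was 1.58-fold by the approximate bound. With normexp both turned slightly positive, 0.14 for ccr8.1 and 0.09 for ccr12b.2, and neither was called. ccr12a did not pass the test (-0.08, interval -0.62 to 0.45, adjusted p = 0.772). Its pools read -4.21 to -3.20 in mutants and -3.80 to -3.14 in siblings.

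cxcl20 was the ligand that rose. It read -0.32, -0.04, -0.34 and -0.04 in mutant pools, against -1.05, -1.33, -0.84 and -1.11 in sibling pools. All mutant pools lay above all sibling pools, by 0.90 ± 0.13 on the log2 scale, or 1.86-fold (adjusted p = 7.66e-04). Its second probe gave 0.92 ± 0.11 (adjusted p = 3.47e-04), and normexp gave 0.71 for the first.

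Over the measured members as a whole, the pools of the genotypes did not overlap for 39 of 49, in 37 of which the mutants were lower. Among all genes tested 54.6% did not overlap, and 26.1% had all mutants lower. The 39 include the 8 members that were dim on every mutant array. Among the 34 members above background on all 8 arrays, 24 did not overlap, in 22 of which the mutants were lower, against 54.9% and 24.2% of all genes that met this filter. Within mutants the pools were further apart than within siblings, for the members as for all genes tested. The median range over 4 pools was 0.88 for ligands in mutants and 0.53 in siblings, and 0.82 for receptors in mutants and 0.39 in siblings. Mutant pools were the wider in 35 of the 49 members and in 12114 of the 17263 named genes, whose median ranges were 0.49 in mutants and 0.35 in siblings. The mean over ligands, each gene centred on its mean over the 8 pools, was -0.55, -0.49, -0.78 and -0.87 in mutant pools, against 0.51, 0.56, 0.84 and 0.78 in sibling pools. The same mean over receptors was -0.62, -0.18, -0.39 and -0.63 in mutant pools, against 0.31, 0.49, 0.48 and 0.55 in sibling pools. Both means include members that entered only through sibling arrays, so part of each gap is set by the filter. Over the 26 ligands above background on all 8 arrays it was -0.50, -0.33, -0.58 and -0.71 in mutant pools. Their sibling pools were at 0.34, 0.47, 0.68 and 0.62. Over the 8 receptors above background on all 8 arrays it was -0.54, -0.12, -0.28 and -0.37 in mutant pools. The sibling pools of these receptors were at 0.16, 0.36, 0.36 and 0.43.

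Genes that sit side by side did not always move alike. Neighbours were taken from the order of genes in GRCz12tu, with at most 2 protein-coding genes between members, which placed 49 of the 80 listed symbols in 17 runs. cxcl11.3 and cxcl11.4 were lower in mutants while cxcl20, in the same run, was higher. ccl25b fell by 2.50 while its neighbour ccl44 was at 0.13 and did not pass the test, and cxcl18a.1 fell by 1.13 beside cxcl12a at -0.21. In the run of ccl34b genes, ccl34b.4 and ccl34b.9 were called lower and ccl34b.1 was not. Elsewhere the measured genes of a run all fell, as for cxcl19, cxcl8b.3 and cxcl8b.1, with differences of -3.49 to -0.54. In the run of ccl38a.3, ccl38.6 and ccl38a.5 all were called lower, and their neighbour ccl38a.4 was not above background on any array. Of the genes named in these runs, cxcl11.4, ccl34b.9, ccl38a.3 and ccl38a.5 were dim on every mutant array. They entered only through sibling arrays, so their falls cannot show that neighbours moved alike or apart. Both cxcr3 genes measured, cxcr3.1 and cxcr3.2, are neighbours as well. Differences between neighbours were not tested, and the authors' probes may share sequence between near-identical copies, which was not tested either.

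Markers of the cells that carry or make chemokines were counted in the same pools. The counts of each list stand against the 57.6% of all genes that were called, 27.8% lower. In these lists cd8b, cd37, cd22, npsn and nkl.3 were dim on every mutant array and passed the filter only through sibling arrays. Except for cd22, which did not pass the test, they are counted among the falls, but their calls are not support for a difference. Some other falls rest partly on signals not above background, such as that of nkl.4, above it on 2 mutant arrays. Of 15 measured T cell and thymocyte markers, 10 fell, 2 rose and 3 did not pass, with a median of -1.66. runx3 (-1.44 ± 0.11), il7r (-1.66 ± 0.14), themis (-2.00 ± 0.17) and zap70 (-1.80 ± 0.16), which act in T cell development or antigen receptor signalling, had the smallest adjusted p-values of that list. il7r was above background on 1 mutant array, so its size rests mostly on signals not above background. Normexp values are not given for genes outside the chemokine members. The markers that rose were tox (0.90) and bcl11ba (1.02), both genes of transcription factors. In these lists, genes beyond the 4 smallest adjusted p-values were chosen for naming after their values were seen. cd8b, the co-receptor chain of cytotoxic T cells, was dim on every mutant array. The summed signal of the T cell list, in units of the 75th percentile, was 8.33 to 9.62 in mutant pools and 8.19 to 9.49 in sibling pools, so the sums overlapped. Without tox, which gave 20.3% to 42.6% of the sum, they were 4.83 to 5.52 in mutant pools and 6.21 to 7.48 in sibling pools.

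Of 9 B cell markers 5 fell, 2 rose (pax5 and blnk) and 2 did not pass, with a median of -0.63. cd79a, a chain of the B cell receptor that was above background on 3 mutant arrays, fell by 2.47 ± 0.13. cd37 and cd22 were not above background on any mutant array. The summed B cell signal was 1.55 to 1.83 in mutant pools and 2.02 to 2.43 in sibling pools. Of 14 neutrophil markers 6 fell, 1 rose (csf3r) and 7 did not pass, with a median of -0.74. adam8a (-1.52 ± 0.09), mmp9 (-2.16 ± 0.19) and lyz, the lysozyme gene (-1.68 ± 0.16), fell, while mpx, the myeloperoxidase gene, was at -1.10 with an adjusted p of 0.0661. The neutrophil sum was 90.3 to 233 in mutant pools and 225 to 270 in sibling pools, and npsn was dim on every mutant array. That sum was 87.5% to 95.1% signal of 1 gene, cpa5, which did not pass the test (-0.53, adjusted p = 0.167), and without it the sums were 9.85 to 14 in mutant pools and 13 to 17.4 in sibling pools. Of 21 macrophage and microglia markers 12 fell, 3 rose (marco, havcr1 and fcer1gl) and 6 did not pass, with a median of -0.50 and sums of 76.6 to 129 in mutant pools and 116 to 136 in sibling pools. Without apoeb, 40.5% to 76.0% of that sum, the sums were 21.1 to 35.6 in mutant pools and 53.0 to 79.5 in sibling pools. cd74b (-1.62 ± 0.18) and mpeg1.2 (-2.05 ± 0.24), an antigen presentation gene and a perforin-like gene, led that list by adjusted p.

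Of 5 markers of NK-like cells and eosinophils, 3 fell (nkl.3, nkl.4 and eslec) and 2 did not pass, with sums of 80.1 to 220 in mutant pools and 214 to 256 in sibling pools and nkl.3 dim on every mutant array. cpa5, which is in this list too, gave 98.5% to 99.4% of the sum, and without it the sums were 1.18 to 1.45 in mutant pools and 2.08 to 3.51 in sibling pools. Of 6 thymic and epithelial genes, 5 fell and 1, foxn1, the thymic epithelial transcription factor, rose by 0.53 ± 0.16, with sums of 145 to 190 in mutant pools and 224 to 268 in sibling pools. The keratin gene krt5 gave 56.8% to 75.4% of that sum. Without it the sums were 35.7 to 67.4 in mutant pools and 93.4 to 116 in sibling pools. The keratin gene krt4 was the brightest of the rest, so neither sum stands for thymic genes. ctsla fell by 1.44 ± 0.16 and the keratin gene krt4 by 1.09 ± 0.22. Of 9 endothelial and lymphatic markers, 6 fell, 2 rose (prox1a and cdh5) and 1 did not pass, with sums of 3.83 to 4.80 in mutant pools and 4.27 to 4.71 in sibling pools. Of 9 neuromast markers, 2 fell (atoh1a and fgf10a), 2 rose (sox2 and cldnb) and 5 did not pass. Their sums were 4.14 to 4.72 in mutant pools and 3.50 to 3.89 in sibling pools. Without sox2, 25.2% to 45.8% of that sum, they overlapped, at 2.43 to 3.08 in mutant pools and 2.48 to 2.90 in sibling pools. Neuron genes went the other way, with 5 of 7 higher in mutants, a median of 0.70 and sums of 86.5 to 106 in mutant pools and 53.1 to 59.7 in sibling pools. Of 7 skeletal muscle genes, 1 rose (myhz1.1) and 6 did not pass, with sums of 1937 to 3470 in mutant pools and 2116 to 2883 in sibling pools. The part of these cell types in the chemokine differences was not tested.

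**Figure D4:**
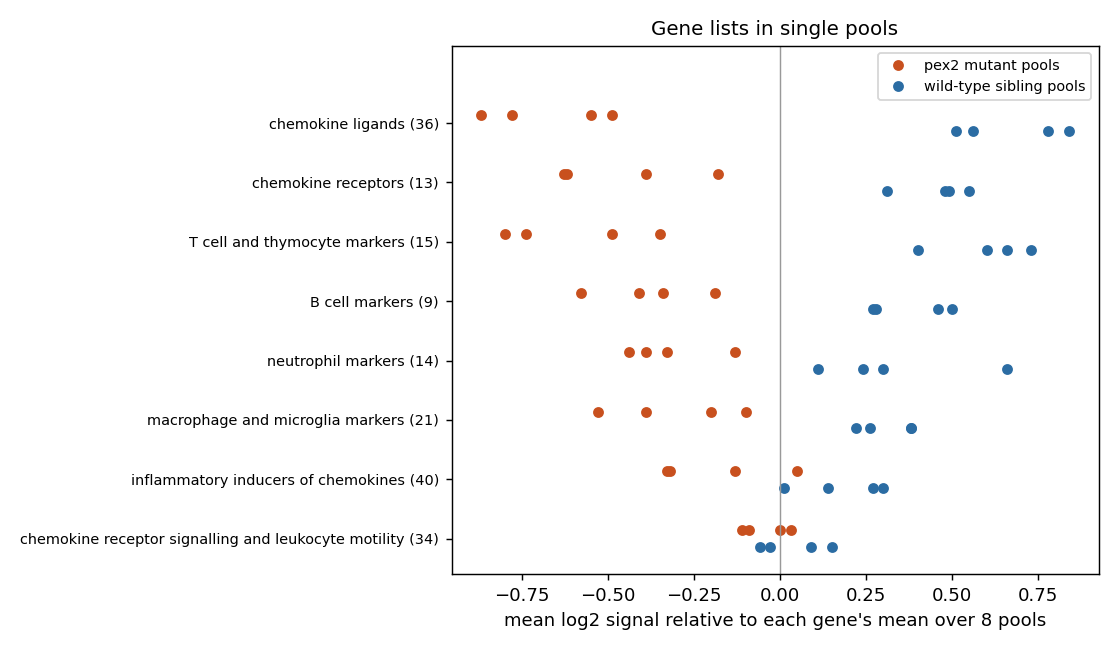
Mean over each list of the log2 signal of its measured genes, each gene centred on its mean over the 8 pools (horizontal axis), with mutant pools in orange above sibling pools in blue and the number of genes in brackets. Chemokine ligands and receptors, T cell, B cell, neutrophil and macrophage markers lie lower in every mutant pool than in any sibling pool. Except for the macrophage list, these hold genes that passed the filter only through sibling arrays, so part of their gap is set by the filter. The list named for inducers and that of signalling and motility genes overlap between genotypes.

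Genes that act on either side of the chemokines were counted in 3 lists. Of 34 measured genes of chemokine receptor signalling and leukocyte motility, 11 fell, 10 rose and 13 did not pass, with a median of 0.07. The share called, 61.8%, and the share that fell, 32.4%, are near the 57.6% and 27.8% of all genes. The actin regulators of leukocytes coro1a (-1.49 ± 0.10), lcp1 (-1.08 ± 0.11) and arpc1b (-1.10 ± 0.12) fell, while arrb1, a beta-arrestin that desensitises receptors, rose by 0.91 ± 0.11. Of 18 genes that cleave chemokines or hold them at the cell surface, 9 fell, 3 rose (gpc1a, ndst1a and ndst1b) and 6 did not pass, with a median of -0.42. The proteases and inhibitors mmp9, timp2b (-1.41 ± 0.13), mmp2 (-1.26 ± 0.13) and mmp14a (-1.09 ± 0.15) were the lead of that list, and all fell.

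Of 40 inflammatory inducers of chemokines, 18 fell, 4 rose and 18 did not pass, with a median of -0.26. The share called was 55.0%, near that of all genes, and the share that fell was 45.0%. The list also holds receptor, signalling and inhibitor genes, so its counts do not stand for inducers alone. The adapter gene myd88 (-1.17 ± 0.16), the NF-kappaB subunit gene nfkb2 (-1.27 ± 0.14) and the neutrophil growth factor gene csf3b (-2.32 ± 0.33) fell. csf3b was above background on 3 mutant arrays. tlr2, a receptor for bacterial lipoproteins, rose by 1.49 ± 0.20, with 1 sibling array above background, and the other genes that rose were il1rapl1a, ikbkb and ikbkg. Among genes of chemokine-like function outside the symbol rule, gpr183a, an oxysterol receptor that guides leukocytes, fell by 1.53 ± 0.14, the cytokine gene mif fell by 0.55 ± 0.12, and cmklr2 at 0.31 did not pass.

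A large share of the calls on dim members was lost under the normexp setting. Besides the background correction, that setting also took spot medians and added an offset to every signal. Which of these changes ended the calls was not tested. With normexp, 14 of the 41 called members were no longer called, 9 ligands and 5 receptors. The 14 included all 8 members that were dim on every mutant array. The other 27 remained called, 19 ligands and 6 receptors lower and the same 2 genes higher. No further member was called. These 27 are 55.1% of the 49 members, against 60.7% of all genes called with normexp, and the 25 lower are 51.0%, against 24.3% of all genes. The median difference with normexp was -0.43 for ligands and -0.13 for receptors, against 0.09 for all genes. cxcl8b.1 (-3.06), ccl25b (-1.97), ccl27a (-1.53), ccl19b (-1.52), ccl19a.2 (-1.36), ccr9a (-1.22), ccl33.3 (-1.07), ccl38.6 (-1.05) and ccl20b (-1.01) stayed at least 2-fold lower under it.

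**Figure D5:**
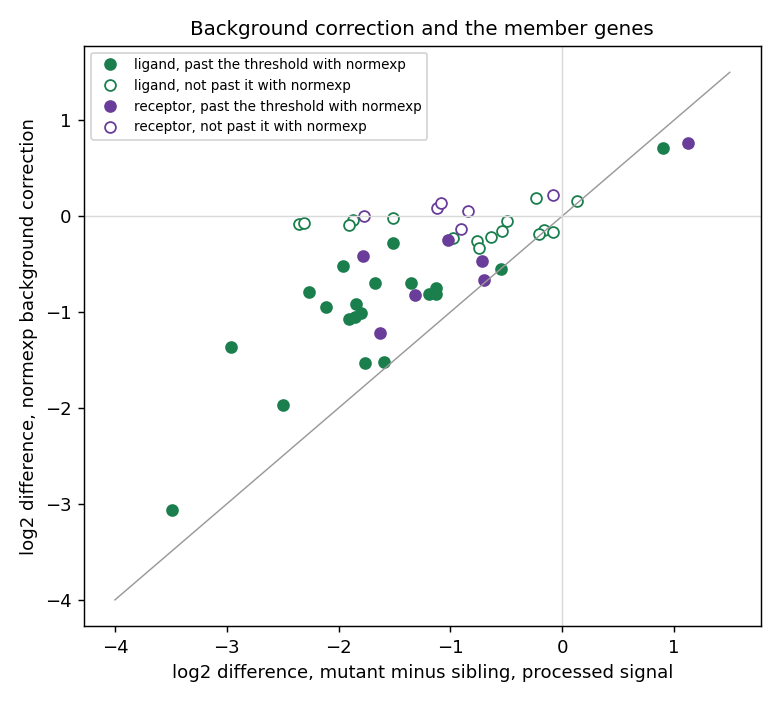
Difference of mean log2 signal, mutant minus sibling, for the 49 measured members, from Agilent's processed signal (horizontal axis) and from normexp background correction (vertical axis), with the line of equality in grey. Green points are ligands and purple points receptors, filled where the gene passed the test with normexp. Most points below 0 on the horizontal axis lie above the line, nearer to 0 with normexp, and cxcl20 and ccr6b remain above 0 on both axes.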

How the data were processed

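Pooled RNA of whole larvae was labelled with 1 dye, Cy3, for Agilent arrays, per the labels' protocols. The deposited scanner files hold background-subtracted spot intensities from Agilent Feature Extraction 10.7.3.1 (protocol GE1_107_Sep09, per the file headers). The authors' deposited value table holds log2 values, which matched the scanner values once these were scaled to the 75th percentile and each probe was centred on its own median (99.8% to 99.9% of values within 0.01, column medians -0.09 to 0.17). It served as an alternative.

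The 1099 outlier spots were dropped and the remaining spots averaged by probe, with 0 spots saturated. Probes had to be well above background on 4 or more of 8 arrays, which kept 29935 of 39749. Genes were named through the RefSeq accession of the probe (61.8% of probes had a symbol), and the brightest kept probe stood for a gene. limma 3.58.1 in R 4.3.3 fitted genotype with moderated variances, two-sided, with Benjamini-Hochberg adjustment over kept probes. Normexp used spot medians with an offset of 50, since the files hold no mean signal. The script was tested on simulated data, and 22 alternative settings were tried. Every measured member is named. Per-pool values were given for those past the test with at least a 2-fold difference, up to 30 by adjusted p, and for ligand and receptor pairs, and other lists give up to 4 genes of smallest adjusted p. Members and lists were chosen with earlier results of these data known. All arrays lay on 1 slide with 1 scan time and 2 pools of each genotype per slide row.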

Additional observations from a re-analysis of the deposited data

Results flagged for a closer look

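In 6 of the 98 groups of 4 pools formed by the measured members, 1 pool lay apart from the other 3 by Dixon's test, and chance marks about 1 in 20 such groups. Among mutants, pool 1 of ackr3b read 0.62 with the others at 0.73 to 0.75, and pool 1 of ccl19a.2 read -2.76 with the others at -5.12 to -4.79. Pool 4 of ccl35.1 read -3.61 with the others at -2.93 to -2.86, and pool 4 of cxcl14 read 1.74 with the others at 1.38 to 1.39. For cxcl18b, mutant pool 2 at -1.94 lay above the other mutants at -2.53 to -2.43, and sibling pool 1 at -1.61 lay below the other siblings at -1.10 to -1.06.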

How the results depend on the processing

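Under 22 alternative settings, 27 of the 41 called members kept their call in every setting they could be run in except a threshold of 0.01, and 6 of these 27 (ccl19a.2, ccl20l, ccl34b.4, cxcl11.3, cxcl11.7 and cxcr3.1) were removed by a stricter background filter. A threshold of 0.01 ended 5 calls (ccl20a.3, ccl35.1, ccl35.2, ccl38a.5 and cxcr4b). Quantile and median scaling changed no member's call or sign. Requiring all 8 arrays above background left 18 ligands and 6 receptors lower, since fewer genes are tested, and gave medians of -1.05 and -0.81, the removed members all having been called lower. No filter on dim probes gave medians of -1.27 and -0.84, and 2 of 4 arrays in each genotype gave a ligand median of -1.16. Normexp left 6 receptors lower and gave medians of -0.43 for ligands and -0.13 for receptors. It turned the sign of ccr12a (0.22), ccr12b.2 (0.09), ccr8.1 (0.14), cxcl12b (0.19) and cxcr3.2 (0.05), and the cause was not tested. ccl39.1 turned to 0.03 with array weights, and ccr12a, at -0.21 to 0.13 with 1 array left out, to 0.03 without sibling replicate 2 and to 0.13 without mutant replicate 4. Leaving out 1 array at a time gave 27 to 29 ligands and 11 receptors lower, medians of -1.60 to -1.36 for ligands and -1.14 to -0.88 for receptors, and 8714 to 10307 genes called. Same-numbered pools deviated together little or not at all (correlations 0.183, 0.0981, -0.0237 and -0.0251), which cannot show whether they shared a clutch. The main fit did not pair them. A replicate block gave 27 ligands and 11 receptors lower and 9423 genes called, and ended the call of ccl20a.3 (adjusted p = 0.0526). Of the members, it changed no other call. Probes near background limit what can be said of the dim members.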
